A study of Rattus norvegicus with 6 samples.

Results

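Cyclin Y (CCNY) was knocked down in primary hippocampal neurons of the rat, and the transcriptome of the CCNY-shRNA libraries was compared with that of the EGFP control libraries. The comparison covered 10188 of the 17066 genes in the deposited table, namely those with an FPKM (the count of sequenced fragments scaled to transcript length and library size) of at least 1 in 2 or more of the 6 libraries. The neurons were taken on embryonic day 18 from Sprague-Dawley rats, received lentivirus made from the vector FUGW on day 5 or 6 in vitro and were lysed on day 14. The control virus expressed EGFP, the knockdown virus CCNY-shRNA-EGFP and another virus, which overexpressed cyclin Y, CCNY-WT-EGFP, and each condition was sequenced as 2 libraries. In the values below, control stands for the EGFP libraries, overexpression for CCNY-WT and knockdown for CCNY-shRNA, with replicate 1 named before replicate 2. All conditions, the control included, were thus infected with a lentivirus that expresses EGFP. The labels name EGFP as the control and no shRNA without a target, and 1 shRNA construct is named. No source used here says that the 2 libraries of a condition came from separate cultures, so the p-values measure the spread between these libraries, which may be technical.

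Cyclin Y is a conserved cyclin that is anchored to membranes by a lipid and activates the kinases CDK14 and CDK16 rather than the kinases that drive the core cell cycle. With CDK14 it promotes phosphorylation of LRP6, a co-receptor of the Wnt pathway. Neurons no longer divide but express it, and there it is known at the postsynaptic side and from work on synapse remodelling and long-term potentiation.

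The table holds 1 FPKM value per gene and library and no read counts, so the depth is unknown. Steps in the values of weakly expressed genes gave the depth relative to EGFP replicate 1, which was 1.09 in the control replicate 2, 0.818 and 1.15 in the CCNY-shRNA libraries and 0.933 to 1.33 in the CCNY-WT libraries. An FPKM of at least 1 was reached by 9955 to 10002 genes per library. Values under an FPKM of 1 were set to 1 before taking log2, and a log2 change is the mean of the 2 CCNY-shRNA libraries minus that of the 2 EGFP libraries on this scale, which understates the change of genes near the floor. The test was limma's, with the spread estimated over all 6 libraries and p-values adjusted over the 10188 genes by the Benjamini-Hochberg method, and a gene is said to have risen or fallen only where the adjusted p was under 0.05. An exact permutation test of 2 libraries against 2 cannot give a two-sided p below 0.333.

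Ccny itself was at an FPKM of 43.1 and 42.3 in the EGFP libraries, 108 and 109 under overexpression, and 5.98 and 6.19 under knockdown. Its level fell by 85.7%, the groups did not overlap, and the log2 change was -2.81 (SE 0.0658, adjusted p = 1.57e-06 in limma). Of the other genes listed as partners of cyclin Y, none passed the adjusted threshold. Cdk16, a kinase that cyclin Y binds and activates, had an FPKM of 151 and 146 in the control and 169 and 168 under knockdown (log2 change 0.18, SE 0.0582, adjusted p = 0.168 in limma). Cdk14 was at 45.0 and 39.5 in the control and 44.8 and 47.4 under knockdown, so that the groups overlapped. Lrp6 was at 7.22 and 7.30 against 6.62 and 6.32, and its relative Lrp5 at 2.56 and 2.84 against 2.29 and 2.13, with limma adjusted p-values of 0.542 and 0.423. Cdk17, a relative of Cdk16, was at 32.97 and 32.7 against 30.5 and 32.3.

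Across all genes tested, 59 fell and 17 rose in CCNY-shRNA, which is 0.579% and 0.167% of the 10188 and 0.746% together. At an unadjusted p under 0.05, 9.36% of the genes tested were lower and 9.2% higher. Besides Ccny, the falls had a median log2 change of -0.53, and 5 of them were at least 1 in size, while the rises had a median of 0.41, and Mgp alone was at least 1. In 24 falls and 11 rises the change was under 0.5 in size. In each of the 76 genes both CCNY-shRNA libraries lay outside the range of both EGFP libraries, a position that 24.3% of all tested genes took below EGFP and 23.7% above it. For 58 of the 59 falls both CCNY-shRNA libraries also lay below both CCNY-WT libraries, the exception being Stard4, and for 9 of the 17 rises they lay above them, against 13.9% and 12.6% of all tested genes that lay beyond all other libraries. Calls were more frequent among abundant genes, where the standard errors were smaller. They made up 0.138% of the 3622 genes with a mean EGFP FPKM under 10 (median standard error 0.195), 0.957% of the 5436 genes between 10 and 100 (0.0903) and 1.68% of the 1130 genes at 100 or more (0.0639).

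These calls depended on the libraries used and on the fit. With any EGFP or CCNY-WT library left out, Ccny was the 1 gene past the threshold. Without CCNY-shRNA replicate 1 there were 7 calls, 6 of them among the 76, and without CCNY-shRNA replicate 2 there were 5, with 3 among the 76. A fit to the 4 EGFP and CCNY-shRNA libraries, and a fit in which the spread did not follow the expression level, both left Ccny as the 1 call. All 76 genes kept their direction in each of these fits. That was fixed in advance, since both CCNY-shRNA libraries of each gene lay outside the range of the EGFP libraries.

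**Figure D1:**
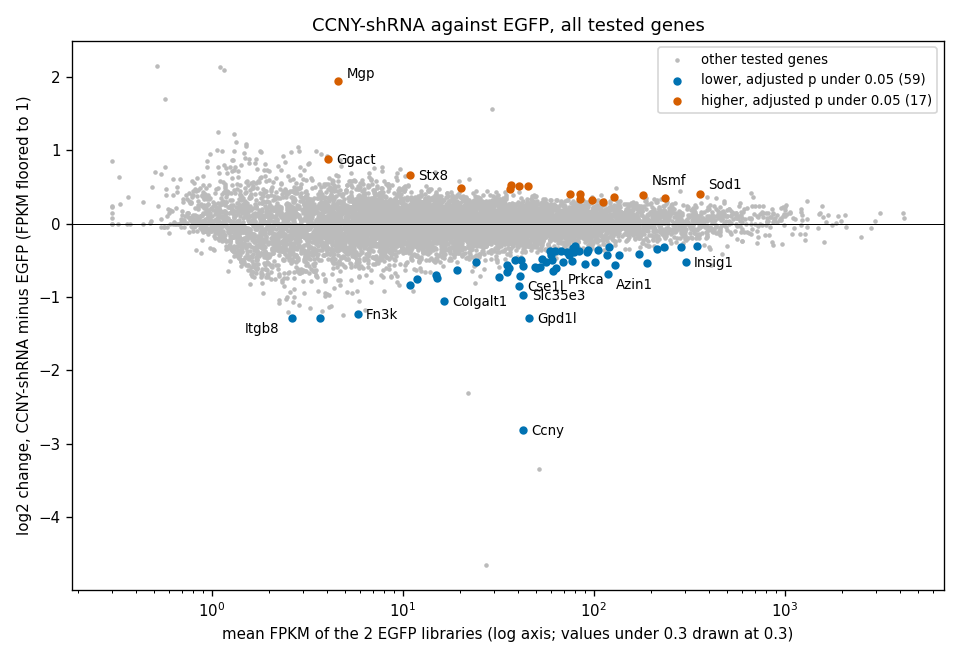
The log2 change of each of the 10188 tested genes (CCNY-shRNA minus EGFP, FPKM floored to 1) is plotted against its mean FPKM in the 2 EGFP libraries, on a log axis. Blue points are the 59 genes that fell and orange points the 17 that rose at a limma adjusted p under 0.05. Ccny lies at -2.81, most other calls lie within 1 of the line of no change, and the gray points that reach as far as the calls lie mostly at low FPKM.

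The largest falls after Ccny included several enzymes and transporters of metabolism and the Golgi. Gpd1l, a symbol that RefSeq lists as a synonym of Gpd1l1 and that stands for a relative of glycerol-3-phosphate dehydrogenase, had an FPKM of 49.96 and 42.01 in the control and 17.03 and 20.5 under knockdown (log2 change -1.29, adjusted p = 0.0112 in limma). The level fell by 59.2% under knockdown, whereas the CCNY-WT libraries, at 45.7 and 40.1, overlapped with EGFP. Fn3k, a kinase that removes sugar adducts from proteins, was at 6.56 and 5.05 in the control, 4.98 and 4.45 under overexpression, and 2.54 and 2.39 under knockdown (-1.23, SE 0.182, adjusted p = 0.0425 in limma). Colgalt1, which adds galactose to collagens in the endoplasmic reticulum, was at 17.6 and 15.2 in the control, 14.9 and 15.0 under overexpression, and 8.17 and 7.60 under knockdown (-1.05, SE 0.113, adjusted p = 0.0148 in limma). Both CCNY-shRNA libraries were at about the same low level, well under the lowest of the others. Slc35e3, a member of a family of nucleotide sugar transporters, was at 43.1 and 42.6 in the control, 41.1 and 38.8 under overexpression, and 22.7 and 20.9 under knockdown (-0.98, SE 0.0722, adjusted p = 0.00402 in limma). Azin1, the antizyme inhibitor that spares ornithine decarboxylase from degradation and so favours polyamine synthesis, was at 119 and 117 in the control, 121 and 122 under overexpression, and 72.4 and 75.2 under knockdown (-0.68, SE 0.0511, adjusted p = 0.00402 in limma). The transcript of that enzyme, Odc1, was at 65.2 and 66.6 against 61.9 and 65.1 (adjusted p = 0.658 in limma). Dnase1l1, a nuclease of the DNase I family, lay near the floor, with 4.05 and 3.36 in the control, 2.77 and 2.17 under overexpression, and 1.39 and 1.65 under knockdown (-1.29, SE 0.213, adjusted p = 0.0464 in limma), so the CCNY-WT libraries were lower than EGFP as well.

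Cell surface proteins, receptors and signalling proteins made up most of the other large falls. Sstr1, a receptor for the peptide somatostatin, was at 10.2 and 11.7 in the control, 9.52 and 9.72 under overexpression, and 5.93 and 6.32 under knockdown (log2 change -0.84, SE 0.126, adjusted p = 0.0425 in limma). Of the other somatostatin receptors tested, none passed the threshold. Sstr2 was at 23.4 and 22.7 against 23.7 and 25.04, Sstr3 at 9.18 and 9.99 against 8.51 and 7.81, and Sstr4 at 14.3 and 15.6 against 11.7 in each knockdown library. Fibcd1, a transmembrane receptor for acetylated sugars, fell from 11.4 and 12.5 to 7.20 and 6.95, with 11.2 and 10.4 under overexpression (-0.75, SE 0.117, adjusted p = 0.0439 in limma). Cd164, a sialomucin of the plasma membrane and lysosomes, fell from 31.6 and 32.6 to 18.9 and 19.9, with 33.9 and 32.5 under overexpression (-0.73, SE 0.072, adjusted p = 0.0112 in limma). Itgb8, the integrin subunit that with the alpha V chain activates latent TGF-beta, fell to the floor, from 2.76 and 2.47 to 1.02 and 1.11, with 2.18 and 2.48 under overexpression (-1.29, adjusted p = 0.0425 in limma). Of the signalling genes, Doc2b encodes a calcium sensor of spontaneous transmitter release and fell from 14.3 and 15.4 to 8.63 and 9.71, with 12.9 and 14.2 under overexpression (-0.70, SE 0.114, adjusted p = 0.0456 in limma). Rasgrp2, an activator of Rap that responds to calcium and diacylglycerol, fell from 15.3 and 15.1 to 8.72 and 9.39 (-0.75, adjusted p = 0.0321 in limma), with 14.7 and 15.7 under overexpression.

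Nov, named Ccn3 in RefSeq and encoding a secreted matricellular protein, was at 38.7 and 43.4 in the control, 39.5 and 36.3 under overexpression, and 25.2 and 24.9 under knockdown (log2 change -0.71, SE 0.0809, adjusted p = 0.0184 in limma). Cse1l encodes the exportin that returns importin alpha from the nucleus to the cytoplasm, and its FPKM was 39.9 and 41.3 in the control, 38.4 in each CCNY-WT library, and 23.6 and 21.6 under knockdown (-0.85, SE 0.0709, adjusted p = 0.00706 in limma). In both genes the CCNY-WT libraries lay near EGFP and the 2 CCNY-shRNA libraries lay apart from the other libraries.

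**Figure D2:**
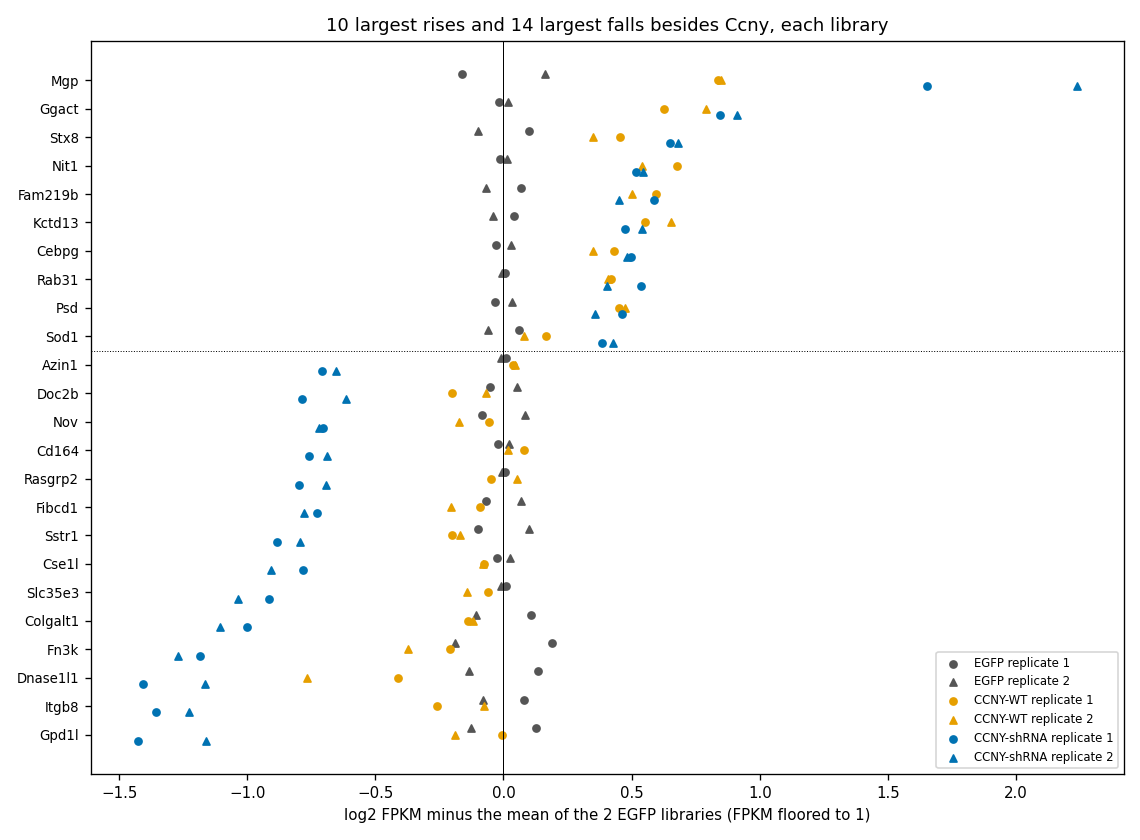
Each row is 1 gene and each point 1 library, placed at its log2 FPKM (floored to 1) minus the mean of the 2 EGFP libraries. Gray marks EGFP, yellow CCNY-WT and blue CCNY-shRNA, with circles for replicate 1 and triangles for replicate 2. In the 14 largest falls besides Ccny the blue points lie left of all others, while in most of the 10 largest rises the yellow points lie to the right of EGFP as well.

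The smaller falls held a group of synaptic and neuronal surface molecules. Nrxn3, a presynaptic neurexin that binds postsynaptic partners across the cleft, was at an FPKM of 42.5 and 41.2 in the control, 39.3 and 37.0 under overexpression, and 30.4 and 28.9 under knockdown (log2 change -0.50, SE 0.0679, adjusted p = 0.0321 in limma). Clstn2, the postsynaptic cadherin relative calsyntenin-2, was at 58.7 and 62.2 in the control and 44.6 and 40.9 under knockdown (-0.50, adjusted p = 0.0312 in limma). The CCNY-WT libraries, at 46.9 and 46.0, lay between the 2 groups and nearer to the knockdown (log2 change -0.38 in CCNY-WT, adjusted p = 0.326 in limma). The activity-induced protocadherin Pcdh8 fell from 129 and 131 to 97.3 and 79.0 (-0.57), the widest spread between knockdown libraries in this group. Lrrn3, a leucine-rich repeat protein, fell by 0.39 on the log2 scale, with a change of -0.23 in CCNY-WT that did not pass the threshold. Nrp2, the neuropilin that serves as a receptor for class 3 semaphorins, fell from 120 and 117 to 88.5 and 87.6 (-0.42, SE 0.0502, adjusted p = 0.0213 in limma). Its relative Nrp1 was at 125 and 124 against 123 and 113 (adjusted p = 0.521 in limma). Also lower were Itgbl1 (-0.61), Mpzl1 (-0.66), Megf9 (-0.64), the glycosylated surface protein Cd24 (-0.52), Olfm2 (-0.49), the neuronal proteoglycan Cspg5 (-0.37), the tetraspanin Cd151 (-0.34), Sertm1 (-0.31) and Faim2, an inhibitor of Fas-mediated death (-0.38). This grouping by role, and those of the other genes past the threshold, were made after the values were seen.

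Channel and pump subunits fell by smaller amounts. Atp1b2, a beta subunit of the sodium and potassium pump, was at an FPKM of 133 and 139 in the control and 105 and 97.9 under knockdown (log2 change -0.42, SE 0.0566, adjusted p = 0.0312 in limma). Another beta subunit, Atp1b1, did not pass the threshold, with 1821 and 1885 against 1850 and 1884. Cacna2d3, an auxiliary subunit of voltage-gated calcium channels, fell from 66.8 and 71.99 to 48.02 and 48.2 (-0.53, SE 0.0599, adjusted p = 0.0184 in limma), and Scn3b, a beta subunit of sodium channels, from 119 and 121 to 98.3 and 93.5 (-0.32, SE 0.0526, adjusted p = 0.0456 in limma). Cacna2d3 and Scn3b were slightly lower in CCNY-WT as well, at 62.4 and 63.4 and at 112 in each library.

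Genes of GABA synthesis and storage differed among themselves. Gad2, the GABA-synthesizing enzyme concentrated at nerve terminals, was at an FPKM of 170 and 173 in the control, 176 and 181 under overexpression, and 129 in each CCNY-shRNA library (log2 change -0.41, SE 0.0494, adjusted p = 0.0226 in limma). Gad1, the other GABA-synthesizing enzyme, was at 189 and 188 in the control and 183 and 187 under knockdown (adjusted p = 0.813 in limma), and the vesicular transporter Slc32a1 at 125 and 136 against 121 and 118 (adjusted p = 0.332 in limma). In these bulk libraries, fewer cells of a type and less of an RNA per cell cannot be told apart. Of the 19 interneuron markers, 16 were tested. Among these, 9 (56.2%) lay below EGFP and 0 above, against 24.3% and 23.7% of all tested genes. The summed FPKM of this list was 2780 and 2930 in the control, 2810 and 2850 under overexpression, and 2430 and 2610 under knockdown. The part of this difference in the fall of Gad2, which belongs to the list, was not tested.

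Intracellular signalling and trafficking genes that fell included Prkca, protein kinase C alpha, from 89.99 and 90.03 to 62.5 and 59.9 (log2 change -0.56, adjusted p = 0.0112 in limma). Hap1, which links huntingtin to vesicle transport, fell by 0.53, Tbc1d9, a protein with a Rab GTPase-activating domain, by 0.57, Elmod1, a GTPase-activating protein for Arf, by 0.36, and Tmod1, which caps the pointed ends of actin filaments, by 0.63 on the log2 scale. Secreted and shedding factors were represented by Adam10, the protease that acts as alpha-secretase on the amyloid precursor protein, with 52.3 and 52.2 in the control, 55.3 and 48.9 under overexpression, and 35.4 and 33.8 under knockdown (-0.60, SE 0.0742, adjusted p = 0.0231 in limma). Both knockdown libraries lay clear of the 4 others, whose own spread was wider than that of EGFP. Igfbp4, a binding protein for insulin-like growth factors, fell by 0.58, and the lipoprotein lipase Lpl by 0.43. Nuclear and RNA-related genes that fell were Thoc7, a subunit of the complex that couples transcription to mRNA export (-0.60), Nap1l3, a nucleosome assembly protein (-0.61), Cbx6, a Polycomb protein (-0.37), and Bzw1, a regulator of translation initiation, which was more abundant than these, with 193 and 189 against 126 and 137 (-0.54). Of the Golgi and secretory genes, Slc35e2b, a relative of Slc35e3, fell by 0.52 and Tmed7, a cargo receptor of the early secretory pathway, by 0.38. LOC100125362, for which no symbol was matched, fell by 0.43.

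Lipid genes formed another group. Insig1, the endoplasmic reticulum protein that retains the SREBP complex and restrains sterol synthesis, was at an FPKM of 300 and 308 in the control, 276 and 258 under overexpression, and 220 and 201 under knockdown (log2 change -0.53, SE 0.0646, adjusted p = 0.0227 in limma). Nsdhl, a dehydrogenase of late cholesterol synthesis, was at 233 and 237 in the control, 209 and 205 under overexpression, and 185 and 190 under knockdown (-0.33, SE 0.0498, adjusted p = 0.0427 in limma). Msmo1, the methylsterol oxidase of the same branch, was at 345 and 353 in the control, 299 and 306 under overexpression, and 281 and 282 under knockdown (-0.31, SE 0.0512, adjusted p = 0.0464 in limma). In these 3 genes the CCNY-WT libraries lay between EGFP and CCNY-shRNA. Stard4, a carrier of sterols between membranes, was as low in CCNY-WT (50.7 and 50.05) as in CCNY-shRNA (54.4 and 50.4), against 67.5 and 68.1 in the control (-0.37 under knockdown, SE 0.0608, adjusted p = 0.0456 in limma). Both conditions are set against the same EGFP libraries. Over the list of sterol synthesis genes, 26 were tested, 4 fell (against 0.579% of all genes), and 15 (57.7%) lay below EGFP, with a median log2 change of -0.16, against 24.3% and 0 over all genes. In CCNY-WT, 24 of the 26 lay below EGFP, against 19.0% of all genes tested, with a median of -0.18, and 0 passed the adjusted threshold. Not all members were low, since the decarboxylase Mvd was at 224 and 235 against 260 and 259 (adjusted p = 0.141 in limma). Of lipid genes outside the list, Elovl5, an elongase of polyunsaturated fatty acids, fell by 0.51, Lpgat1, an acyltransferase of lysophospholipids, by 0.59, the cholesterol ester hydrolase Nceh1 by 0.38 and Cyp46a1, the neuronal enzyme that converts cholesterol to its exported 24-hydroxy form, by 0.39 on the log2 scale.

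The promoters of Insig1 and Msmo1 are shown because 4 sterol genes fell and most promoters of the list held the CCAAT box. RefSeq promoter sequences of the assembly GRCr8, from 250 bases before to 50 bases after the gene's start, were searched on both strands. CCAAT was found in 15 of the 18 sterol synthesis genes with a promoter in the table (83.3%), against 37.7% of all 27457 promoters and 37.7% of the 8308 of tested genes. It was in 21 of 45 genes that fell (46.7%) and in 4 of 15 that rose. High shares were not limited to the sterol list. Among lists with a median log2 change below 0, CCAAT was in 18 of 25 chaperone and heat shock promoters, a list without a call. It was in 2 of 15 promoters of voltage-gated sodium and calcium channels. Among lists with a median above 0, CCAAT was in 17 of 32 proteasome but 16 of 63 cytosolic ribosomal protein promoters. The sterol response element was searched as TCACNCCAC and found in 0 of the 18 sterol synthesis promoters against 1.13% of all promoters. The Insig1 window is chr4:8057720-8058019 on the minus strand and that of Msmo1 chr16:29746863-29747162 on the plus strand. Capitals mark CCAAT or its reverse complement ATTGG, with 1 match in Insig1 and 3 in Msmo1.
Insig1: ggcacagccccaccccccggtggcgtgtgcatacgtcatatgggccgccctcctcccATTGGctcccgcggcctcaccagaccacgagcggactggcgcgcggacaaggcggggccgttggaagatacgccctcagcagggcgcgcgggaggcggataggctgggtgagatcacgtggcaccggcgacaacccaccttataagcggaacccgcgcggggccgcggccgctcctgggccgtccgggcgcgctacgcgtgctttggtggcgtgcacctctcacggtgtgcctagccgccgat
Msmo1: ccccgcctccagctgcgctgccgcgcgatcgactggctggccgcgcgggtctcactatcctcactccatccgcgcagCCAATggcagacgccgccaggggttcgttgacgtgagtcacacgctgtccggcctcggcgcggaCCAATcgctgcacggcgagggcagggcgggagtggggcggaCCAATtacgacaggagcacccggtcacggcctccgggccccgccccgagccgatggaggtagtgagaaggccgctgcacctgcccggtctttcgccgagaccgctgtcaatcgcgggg

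Among the rises, Mgp, the matrix Gla protein that inhibits calcification, was the largest, with an FPKM of 4.07 and 5.11 in the control, 8.15 and 8.21 under overexpression, and 14.3 and 21.5 under knockdown (log2 change 1.94, SE 0.204, adjusted p = 0.0144 in limma). Mgp is also on the list of vascular and meningeal markers. Of that list 4 of 19 genes were tested, 3 above and 1 below EGFP, against 23.7% and 24.3% of all tested genes. The list had a summed FPKM of 72.5 and 83.7 in the control, 88.9 and 88.7 under overexpression and 85.8 and 93.7 under knockdown. Its smooth muscle gene Tagln was at 1.76 and 3.93 against 6.68 and 4.39 and its fibroblast genes Dcn at 13.2 and 14.9 against 16.1 and 17.0 and Lum at 50.1 and 56.0 against 46.0 and 49.0, while the endothelial genes Cldn5 and Cdh5 were listed at 0 in every library. The part of these cells in the rise of Mgp was not tested.

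Ggact, an enzyme that breaks down crosslinked gamma-glutamylamines, rose from 4.02 and 4.11 to 7.31 and 7.65 (log2 change 0.88, adjusted p = 0.0439 in limma), with 6.28 and 7.04 under overexpression. Stx8, a SNARE of late endosomes, rose from 11.7 and 10.2 to 17.1 and 17.5 (0.67, adjusted p = 0.0441 in limma), with 14.9 and 13.9 under overexpression. Cebpg, a bZIP factor that pairs with ATF4, rose from 19.7 and 20.5 to 28.4 and 28.1 (0.49), with 27.2 and 25.6 under overexpression. Sod1, the cytosolic superoxide dismutase, rose from 376 and 346 to 471 and 484 (0.41), with 405 and 381 under overexpression. In these 4 genes the CCNY-shRNA libraries were the highest.

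In the next group the CCNY-WT libraries were as high as the knockdown libraries. Nit1, an amidase that clears deaminated glutathione, was at an FPKM of 36.4 and 37.1 in the control, 58.8 and 53.4 under overexpression, and 52.6 and 53.6 under knockdown (log2 change 0.53, SE 0.0664, adjusted p = 0.0231 in limma). Kctd13, an adaptor that brings RhoA to the CUL3 ubiquitin ligase, was at 46.8 and 44.2 in the control, 66.8 and 71.6 under overexpression, and 63.2 and 66.2 under knockdown (0.51, SE 0.0646, adjusted p = 0.0253 in limma). Fam219b, of no well known function, was at 42.8 and 39.0 in the control, 61.7 and 57.9 under overexpression, and 61.3 and 55.8 under knockdown (0.52, SE 0.0765, adjusted p = 0.0425 in limma). In all 3 the lowest CCNY-WT or CCNY-shRNA library lay well above the highest EGFP library. Rab31, a small GTPase of the trans-Golgi network and endosomes, was at 36.7 and 36.3 in the control, 48.8 and 48.5 under overexpression, and 53.0 and 48.4 under knockdown (0.47, SE 0.066, adjusted p = 0.0363 in limma). Psd, an exchange factor for ARF6 at dendritic spines, was at 73.4 and 76.7 in the control, 103 and 104 under overexpression, and 103 and 96.2 under knockdown (0.41, SE 0.0585, adjusted p = 0.0383 in limma). The postsynaptic genes Nsmf, whose product Jacob travels from synapse to nucleus, and Ddn, which encodes dendrin, had the same order, with 239 and 236 in the control, 311 and 315 under overexpression and 306 and 298 under knockdown for Nsmf (0.35) and 112 and 111, 147 and 145, and 136 and 138 for Ddn (0.29). In CCNY-WT none of these genes passed the adjusted threshold, Ccny being the 1 gene called there (0.00982% of 10188), and the difference between the 2 conditions was not tested gene by gene here. The remaining rises were Qdpr, which regenerates tetrahydrobiopterin (0.40), Srp14, a subunit of the signal recognition particle (0.39), the atypical cyclin Ccni (0.36), the guanylate kinase Guk1 (0.34) and RGD1563348, named Selenoh in RefSeq, a nuclear selenoprotein (0.32). Of these, Guk1 was as high in CCNY-WT, at 106.6 and 103.3, as in CCNY-shRNA, at 104.5 and 109.1, against 85.2 and 83.6 in the control.

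The promoters of Kctd13 and Nit1 are shown because the ETS-type letters TTCCGG were found in 6 of the 15 risen genes with a promoter in the table (40.0%) and in 3 of the 45 that fell (6.67%). The share was 15.8% over all 27457 promoters of 300 bases and 28.8% over the 8308 of tested genes. The share varied among the gene lists described next on either side of EGFP. Among lists with a median log2 change above 0, the letters were in 16 of 32 proteasome, 33 of 63 cytosolic ribosomal protein and 14 of 29 SNARE gene promoters, but in 4 of 26 of antioxidant enzymes. Among lists with a median below 0, they were in 3 of 40 axon guidance, 0 of 23 neuropeptide and 5 of 20 activity-regulated gene promoters, but in 21 of 56 of cadherins and protocadherins (37.5%). The motifs were picked after the expression values were seen, 10 in all. Of the others, GGGCGG was in 86.7% of risen and 62.2% of fallen genes (63.8% of tested genes), CACGTG in 2 of 15 and 9 of 45 (9.85%), TGACGTCA in 0 and 8.89% (3.44%), TATAAA in 13.3% and 11.1% (6.13%), TGACNNNGC in 0 and 17.8% (14.7%), TGATGNAAT in 0 and 2.22% (0.53%), and TCACNCCAC and a longer form that overlaps it in 0 of either (1.1% and 0). The Kctd13 window is chr1:190964823-190965122 on the plus strand and that of Nit1 chr13:86305721-86306020 on the minus strand, both in GRCr8 and 5′ to 3′ along the gene, and capitals mark the 1 match in each.
Kctd13: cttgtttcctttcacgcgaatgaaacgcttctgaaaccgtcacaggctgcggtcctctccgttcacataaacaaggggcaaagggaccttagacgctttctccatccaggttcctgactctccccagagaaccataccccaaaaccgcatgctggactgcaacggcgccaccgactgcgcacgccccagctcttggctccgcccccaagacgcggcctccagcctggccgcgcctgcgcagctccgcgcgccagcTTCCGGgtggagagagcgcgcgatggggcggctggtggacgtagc
Nit1: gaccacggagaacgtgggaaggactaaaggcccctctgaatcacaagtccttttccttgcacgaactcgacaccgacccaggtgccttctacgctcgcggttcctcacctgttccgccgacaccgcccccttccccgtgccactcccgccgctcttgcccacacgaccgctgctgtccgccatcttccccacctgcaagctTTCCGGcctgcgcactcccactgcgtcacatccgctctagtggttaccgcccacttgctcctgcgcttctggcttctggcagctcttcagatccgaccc

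Beyond single genes, lists of related genes were described by how many members lay above or below EGFP in both knockdown libraries. Proteasome subunits were the most one-sided list above EGFP. Of 39 subunits 36 were tested, 28 (77.8%) lay above EGFP, 2 below and 6 overlapped, against 23.7% above and 24.3% below over all genes, with a median log2 change of 0.22 against 0 for all genes, and 20 of the 36 lay above all other libraries. None passed the adjusted threshold. The values closest to it were those of Psmb1, a core subunit, with an FPKM of 257 and 254 in the control, 279 and 287 under overexpression, and 303 and 306 under knockdown (log2 change 0.25, SE 0.0507, adjusted p = 0.0712 in limma), of the ATPase Psmc5, with 139 and 134 in the control and 159 and 168 under knockdown (adjusted p = 0.0778 in limma), and of Psmb4, with 228 and 223 in the control and 269 and 303 under knockdown (0.34, adjusted p = 0.0853 in limma). Both subunits of the list below EGFP belong to the immunoproteasome, the interferon-induced form, namely Psmb9, with 3.02 and 3.40 against 2.84 and 1.61, and Psmb10, with 12.05 and 13.3 against 9.39 and 10.8, with limma adjusted p-values of 0.364 and 0.198. The activator subunit Psme1, also linked to that form and not on the list, fell from 40.2 and 37.6 to 26.1 and 29.3 (log2 change -0.49, SE 0.0812, adjusted p = 0.0464 in limma). Psmd10 varied most, with 33.9 and 9.95 in the control, 9.10 and 24.8 under overexpression, and 13.8 and 0 under knockdown, so its values overlapped. In CCNY-WT, 16 of the 36 subunits lay above the same EGFP libraries and 0 below, against 20.2% and 19.0% of all genes, with a median of 0.07.

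**Figure D3:**
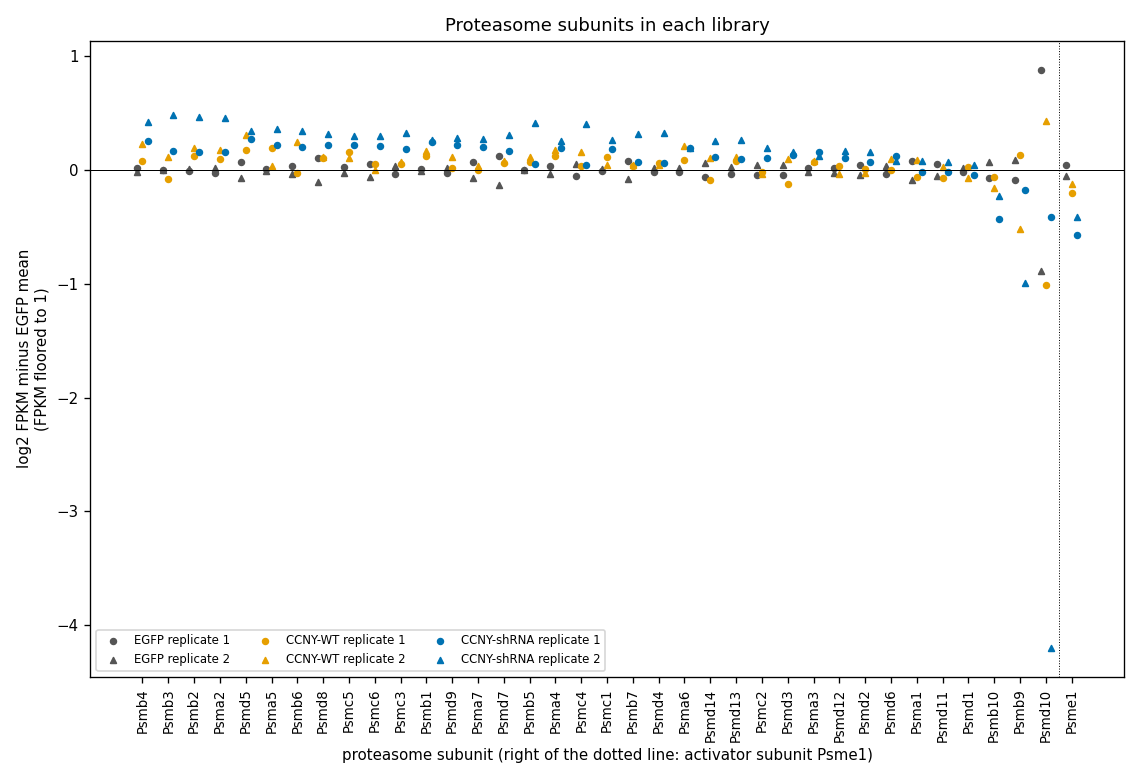
Each column is 1 of the 36 tested proteasome subunits, ordered by log2 change, with the activator subunit Psme1 right of the dotted line. The vertical axis gives log2 FPKM (floored to 1) minus the EGFP mean for each library, gray for EGFP, yellow for CCNY-WT and blue for CCNY-shRNA. Blue points lie above the gray ones in 28 subunits, below them in Psmb9 and Psmb10 and in Psme1, and Psmd10 ranges over several log2 units.

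Other housekeeping lists had 0 calls and smaller shares above EGFP, to be read against 23.7% above and 24.3% below over all genes. Of 67 tested mitochondrial ribosomal proteins, 29 (43.3%) lay above EGFP and 2 below, with a median log2 change of 0.12 (from 0.08 to 0.19 over the alternatives), and the smallest p belonged to Mrps15, at an FPKM of 18.1 and 18.3 in the control and 23.2 in each CCNY-shRNA library (adjusted p = 0.0828 in limma), Mrps34, at 29.6 and 30.7 against 35.9 and 38.3, and Mrps18a, at 48.6 and 45.4 against 64.3 and 54.9. Of 83 subunits of the respiratory chain and ATP synthase, 29 (34.9%) lay above and 2 below, with a median of 0.10 that ranged from 0.007 to 0.19 over the alternatives. Ndufs5 of complex I was at 210 and 213 against 247 and 276 (adjusted p = 0.0829 in limma), Cox7a2l at 108 and 101 against 125 and 123, and Ndufs4, also of complex I, lay on the other side, at 114 and 99.5 against 83.5 and 88.1. Of 78 cytosolic ribosomal proteins, 24 (30.8%) lay above, a share near that of all genes, and 0 below, with a median of 0.10 that ranged from -0.04 to 0.23 with 1 library left out, and with Rpl27a at 265 and 248 against 310 in each knockdown library, Rplp2 at 667 and 676 against 763 and 826, and Rpl24 at 341 and 326 against 382 and 393. Reads of ribosomal protein genes can be shared with their processed copies, so single values are uncertain. In CCNY-WT, 42 of the 78 cytosolic ribosomal proteins lay above the same EGFP libraries and 3 below (median 0.07). Respiratory chain and ATP synthase subunits had 31 of 83 above and 2 below there, and mitochondrial ribosomal proteins 22 of 67 and 4. The shares over all genes in CCNY-WT were 20.2% above and 19.0% below.

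Lists of DNA replication, SNARE, antioxidant and actin genes also lay more often above EGFP than the 23.7% of all genes. DNA replication genes had 11 of 28 above and 3 below (median log2 change 0.12), led by Ssbp1, a mitochondrial single-strand binding protein, at an FPKM of 25.03 and 19.3 in the control, 31.4 and 33.9 under overexpression, and 32.2 and 34.8 under knockdown (adjusted p = 0.0717 in limma), with the primase subunit Prim1 at 22.5 and 23.0 against 28.3 and 26.9 and the polymerase subunit Pold3 at 4.95 and 6.45 against 8.20 and 7.53. SNARE genes had 16 of 33 above and 3 below (median 0.10), and Stx8 was the 1 member that rose. Among the antioxidant enzymes 15 of 32 lay above and 4 below (median 0.13, from 0.05 to 0.16 over the alternatives), and Sod1 rose. Actin regulators were split, with 23 of 49 above and 9 below (median 0.11, from 0.05 to 0.13) and none called. The capping protein subunit Capzb was at 205 and 196 against 240 and 248 (adjusted p = 0.06 in limma), the filament-severing protein Gsn at 59.7 and 68.5 against 46.1 and 50.7, and the muscle-type cofilin Cfl2 at 57.8 and 51.2 against 67.3 and 70.6. Against the same EGFP libraries, CCNY-WT had 14 of the 33 SNARE genes above and 1 below. Antioxidant enzymes had 14 of 32 above and 5 below there, actin regulators 16 of 49 and 8, and DNA replication genes 7 of 28 and 2. The shares over all genes in CCNY-WT were 20.2% above and 19.0% below.

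Lists of neuronal signalling lay mostly below EGFP, against 24.3% of all genes. Of 29 tested neuropeptides and their receptors, 20 lay below and 3 above, with a median log2 change of -0.21, and Sstr1 was the 1 member that fell. Of 52 axon guidance genes, 32 (61.5%) lay below and 3 above, with a median of -0.20, and Nrp2 was the 1 that fell. Ionotropic glutamate receptors and their auxiliary subunits had 16 of 26 (61.5%) below and 2 above (median -0.18), with 0 past the adjusted threshold and 12 at an unadjusted p under 0.05 on the lower side. The kainate receptor partner Neto2 was at an FPKM of 24.1 and 26.0 in the control, 21.5 and 20.8 under overexpression, and 18.3 and 18.1 under knockdown (log2 change -0.46, adjusted p = 0.0543 in limma), the kainate receptor subunit Grik2 at 45.7 and 46.6 against 37.0 and 37.7, and Neto1 at 78.9 and 76.6 against 68.3 and 64.6. All 3 serve kainate receptors, and their knockdown libraries lay below the 4 others. Of the other kainate receptor subunits tested, Grik4 and Grik5 lay below EGFP as well, while Grik1 and Grik3 overlapped with it. GABA receptors had 10 of 15 (66.7%) below and 0 above (median -0.16). Here the metabotropic subunit Gabbr2 was at 97.3 and 102 against 83.4 and 82.7 (adjusted p = 0.0768 in limma), Gabra4 at 44.0 and 45.4 against 38.2 and 34.3, and Gabrd, the subunit of extrasynaptic receptors, at 7.24 and 8.07 against 4.23 and 5.18 (-0.71, adjusted p = 0.0952 in limma). Against the same EGFP libraries, CCNY-WT had 24 of the 52 axon guidance genes below and 5 above (median -0.10). Glutamate receptor genes had 10 of 26 below and 5 above there, GABA receptors 6 of 15 and 0, and neuropeptide genes 8 of 29 and 2. The shares over all genes in CCNY-WT were 19.0% below and 20.2% above.

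Channels and adhesion genes had similar shares. Potassium channels had 29 of 59 (49.2%) below and 5 above (median log2 change -0.12) and 0 calls, with the leak channel Kcnk9 at an FPKM of 26.1 and 24.2 against 20.5 and 17.1, the calcium-activated channel Kcnma1 at 30.1 and 30.5 against 24.5 and 23.4, and Kcna3 at 8.69 and 9.28 against 6.34 and 5.86, at limma adjusted p-values of 0.0952, 0.099 and 0.117. Voltage-gated sodium and calcium channels had 14 of 23 (60.9%) below and 1 above (median -0.11), with Cacna2d3 and Scn3b called. The shift was much the same in CCNY-WT, where 13 of the 23 lay below the same EGFP libraries and 1 above (median -0.10). Over all genes 19.0% lay below and 20.2% above in CCNY-WT. Potassium channels had 14 of 59 below and 12 above there. Of 63 cadherins and protocadherins 34 (54.0%) lay below and 6 above (median -0.17), with Pcdh8 called. In CCNY-WT, 23 of the 63 lay below EGFP and 9 above (median -0.05). Lectican, tenascin and other matrix genes, Sparc and Cd44 among them, had 13 of 21 (61.9%) below and 0 above (median -0.14). The proteoglycan Bcan was at 28.5 and 29.2 against 21.8 in each knockdown library (adjusted p = 0.06 in limma). The link protein Hapln1 was at 14.9 and 16.3 against 10.2 and 11.5, and Reln at 32.97 and 35.2 against 27.7 and 25.2. Growth factor and neurotrophin genes had 17 of 30 (56.7%) below and 2 above (median -0.14), with Fgf22, a presynaptic organizer, at 3.42 and 4.15 against 1.39 and 1.96 (log2 change -1.19, adjusted p = 0.06 in limma), the sorting receptor Sort1 at 110 and 117 against 93.6 and 82.7, and the BDNF receptor Ntrk2 at 79.4 and 81.5 against 71.2 and 67.2. Integrins, laminins and collagens had 6 of 23 (26.1%) below, near the share of all genes, with Itgb8 called.

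**Figure D4:**
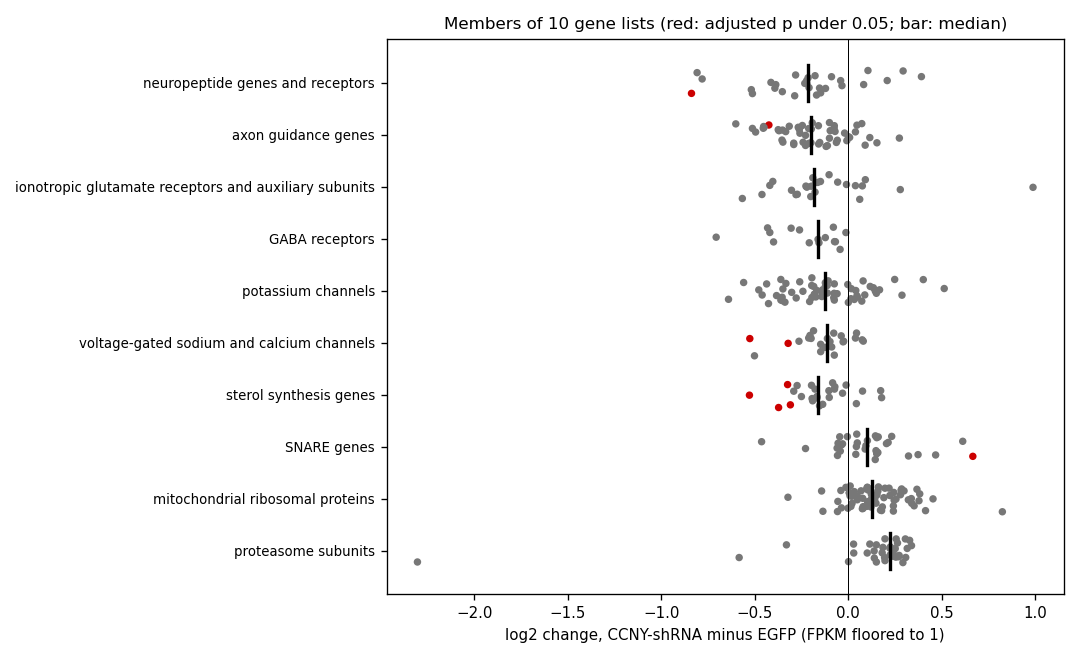
Each point is 1 tested member of a list, placed at its log2 change (CCNY-shRNA minus EGFP, FPKM floored to 1), with vertical scatter for legibility. Red points passed an adjusted p of 0.05 and black bars are medians. The medians run from -0.21 for neuropeptide genes and receptors to 0.22 for proteasome subunits, and most members lie within 0.5 of 0.

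Lists of the synapse itself and of related signalling had medians nearer to 0 than those of neuropeptides, axon guidance genes and receptors, and between 40.7% and 44.0% of their members lay below EGFP, against 24.3% of all genes below and 23.7% above. Postsynaptic scaffold genes had 11 of 25 below and 6 above (median log2 change -0.05, from -0.075 to -0.02 over the alternatives), with Dlgap3 at an FPKM of 83.0 and 82.1 in the control, 92.2 and 94.8 under overexpression, and 102 and 101 under knockdown (log2 change 0.29, adjusted p = 0.0527 in limma), Shank3 at 46.4 and 46.3 against 55.4 and 53.3, and Nlgn1, a postsynaptic partner of neurexins, on the other side at 41.9 and 45.1 against 35.7 in each knockdown library. Synaptic vesicle and release genes had 16 of 38 below and 6 above (median -0.06, which reached 0 among the alternatives), with Syt11 at 464 and 474 against 373 and 330 (-0.42, adjusted p = 0.0527 in limma), Syt4 at 186 and 197 against 164 and 162, and Sv2b at 126 and 134 against 112 and 108. Kinase C, CaM kinase and Ras exchange genes had 15 of 35 below and 4 above (median -0.06), with Prkca and Rasgrp2 called. Activity-regulated genes had 11 of 27 below and 4 above (median -0.09, from -0.14 to 0.01 over the alternatives), and Pcdh8 was the 1 called. Wnt pathway genes had 14 of 32 below and 6 above (median -0.10, from -0.15 to -0.04) and 0 calls, with the Wnt acyltransferase Porcn at 71.2 and 75.6 against 65.0 and 60.5, the kinase Gsk3a at 143 and 126 against 153 and 165, and the inhibitor Nkd2 at 2.83 and 3.04 against 1.81 and 2.003, at limma adjusted p-values of 0.122, 0.15 and 0.151.

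**Figure D5:**
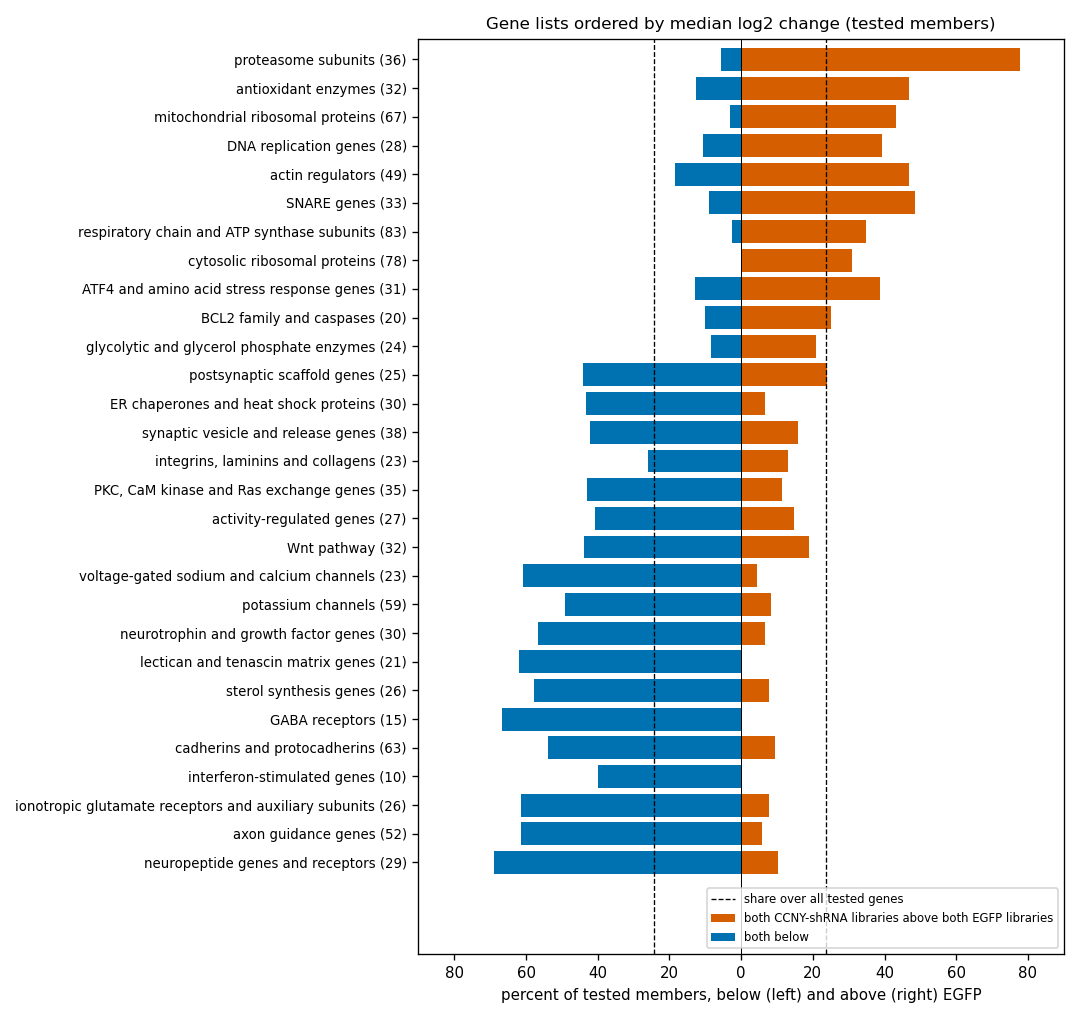
Bars give the percent of each list's tested members (number in brackets) whose 2 CCNY-shRNA libraries both lay below (blue, left) or both above (orange, right) the 2 EGFP libraries, ordered by median log2 change. Dashed lines mark the shares over all tested genes, 24.3% below and 23.7% above. Proteasome subunits reach 77.8% above, and neuropeptide genes and receptors reach the largest share below, with 20 of 29.

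Stress and death lists held few calls, and their shares stand against 24.3% below and 23.7% above over all genes. Endoplasmic reticulum chaperones and heat shock proteins had 13 of 30 below and 2 above (median log2 change -0.05, from -0.085 to -0.03 over the alternatives), with the lectin chaperone Canx at an FPKM of 397 and 421 against 324 and 320 (log2 change -0.34, adjusted p = 0.0521 in limma), Hspa5, the BiP chaperone, at 380 and 423 against 312 and 334, and the mitochondrial Hspe1 at 199 and 194 against 215 and 258. Genes of the ATF4 and amino acid stress response had 12 of 31 above and 4 below (median 0.06, from -0.02 to 0.12 over the alternatives), with Cebpg called. In CCNY-WT, 13 of these 31 lay above EGFP and 3 below, against 20.2% and 19.0% of all genes. The chaperone list had 11 of 30 below and 4 above there. BCL2 family genes and caspases had 5 of 20 above, near the share of all genes, and 2 below (median 0.06, from 0.006 to 0.15), with Pmaip1 at 13.3 and 8.45 against 16.4 and 17.1, Fadd at 3.85 and 4.69 against 6.67 and 5.82, and Bcl2l2 at 66.8 and 68.7 against 72.7 and 75.0, none under an adjusted p of 0.14. Interferon-stimulated genes had 4 of 10 below and 0 above (median -0.18), with B2m at 110 and 116 against 83.3 and 103, and Ifitm3 at 4.09 and 7.47 against 2.001 and 4.24. Glycolytic and glycerol phosphate enzymes had 5 of 24 above and 2 below (median 0.03, from -0.02 to 0.05), with Gpd1l the 1 called.

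The labelled cell type was checked against markers, whose positions are read against 24.3% of all genes below EGFP and 23.7% above. All 15 neuron markers were tested, with a summed FPKM of 6460 and 6470 in the control and 6550 and 6640 under knockdown, 0 calls and a median log2 change of -0.03, and the excitatory neuron markers summed to 1760 and 1810 against 1730 and 1710, with 7 of 13 below EGFP and 3 above. Slc17a7, the vesicular glutamate transporter of excitatory terminals, was at 894 and 936 against 916 and 944. Astrocytes were present, with a summed marker FPKM of 635 and 674 in the control and 556 and 643 under knockdown, 4 of 13 (30.8%) below, near the share of all genes, and 1 above (median -0.13, from -0.26 to -0.01 over the alternatives), and with Gfap at 120 and 126 against 98.3 and 129. Oligodendrocyte lineage markers summed to 60.4 and 59.9 against 53.3 and 51.4, with 4 of 7 below and 0 above. Microglia and macrophage markers were at or near 0, with a sum of 0.546 and 1.10 against 2.23 and 1.5, with 1 of 15 genes tested, and with Aif1 and Cx3cr1 listed at 0 in every library. Mitotic genes summed to 10.9 and 9.52 against 12.5 and 12.3, with 5 of 17 tested. Of the marker genes, Gad2 and Mgp, described above, were past the threshold.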

How the data were processed

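RNA-seq was measured in 6 libraries. Per the labels and methods, libraries were made with a TruSeq kit, and whether counting used strand is not given in the sources used here, so overlapping genes cannot be told apart. Reads were mapped to rn4 with TopHat 2 by the authors, who used Cufflinks for FPKM, and the deposited values are FPKM per gene symbol and library. The submitters' processing notes also name SAMtools 0.1.19, Bowtie2 2.1.0 and Cufflinks 2.2.1. Scaling between libraries is not stated, and the authors' cuffdiff calls were not used. Symbols were matched to RefSeq (GRCr8, names and promoters only) for 10069 of the 10188 genes tested.

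FPKM values were floored to 1, log2-transformed and tested with limma 3.58.1 in R 4.3.3 (lmFit, contrasts.fit, eBayes with a trend) over all 6 libraries, with Benjamini-Hochberg adjustment and a threshold of 0.05. Offsets of 1 and 0.1, filters, scalings, the spread's estimate, a replicate block, thresholds and leaving out each library were tried as alternatives. Tables and plots used Python 3.11.15, pandas 2.3.3, numpy 2.4.6 and matplotlib 3.10.9. The fit was tested on simulated data. Genes past the threshold are named, except that the values of some genes are not reported here. Values go to Ccny, the 14 largest falls, the 10 largest rises, called list members and, for lists without a call, the 3 members with the smallest p. Genes named outside this rule, such as relatives of a called gene and list members that lay the other way, were chosen after their values were seen. The gene lists, from general knowledge, and the members described were chosen with earlier results of these data known.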

Additional observations from a re-analysis of the deposited data

How the results depend on the processing

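The Ccny log2 change in CCNY-shRNA against EGFP kept its direction and side of the threshold in every alternative, from -2.84 to -2.62 on the log2 scale, and -2.84 to -2.79 with 1 library left out. The 59 falls and 17 rises depended on the fit. With 1 library left out in turn, between 1 and 6 genes fell and between 0 and 1 rose. A fit to the 4 EGFP and CCNY-shRNA libraries gave 1 fall and 0 rises, as did a fit without a trend in the spread. No filter on low values left 1 fall and 1 rise among 13483 genes. A filter on the mean FPKM raised the rises to 30, and an adjusted p under 0.1 gave 226 genes lower in CCNY-shRNA than in EGFP and 169 genes higher in CCNY-shRNA than in EGFP. The other settings, offsets, scalings, a robust spread and a minimum log2 change of 0.33, kept both counts within 1.5 times. In every setting all 76 genes kept their direction, and with all 6 libraries in the fit their unadjusted limma p stayed under 0.05. With a library left out the direction could not change, since both CCNY-shRNA libraries lay outside the EGFP range. The 76 were picked by their p in these same libraries, so this gives the calls no separate support. The cause of the lost calls was not tested.

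With the replicate number as a block, 31 falls and 8 rises passed, 36 of these 39 among the 76. Deviations of same-numbered libraries correlated at -0.0286 between EGFP and CCNY-shRNA, 0.144 between EGFP and CCNY-WT and 0.137 between CCNY-WT and CCNY-shRNA, across 8055 genes, and the labels do not say what a shared number stands for. Blocks over the 4 libraries, in the labelled or the crossed pairing and added after seeing the data, each gave 1 fall and 0 rises.

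Scaling moved the median over all genes by at most 0.02. Read depth is unknown, 2 libraries a group limit the precision, and genes under an FPKM of 10 had the largest standard errors.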

Other observations

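Among genes listed at 0 in both libraries of one group and at an FPKM of at least 1 in both of the other, 0 were at 0 in EGFP and 2 were at 0 in CCNY-shRNA. Ly96, the co-receptor of TLR4, had an FPKM of 38.2 and 16.6 in the control, 15.5 and 0 under overexpression (CCNY-WT), and 0 in both CCNY-shRNA libraries. Vamp5 was at 1.45 and 1.31 in the control, 0 and 1.57 under overexpression, and 0 in both CCNY-shRNA libraries. Both genes were also listed at 0 in 1 CCNY-WT library, and an exact 0 in a table without read counts can be a failed estimate.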
